A study of Mus musculus with 8 samples.

Results

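Pdk4, Cpt1a, Cpt2, Angptl4, Acadm, Acadl, Bdh1, Ucp2 and Ppara, a set of genes that handle fatty acids and ketone bodies during fasting, were read in the nucleus accumbens (NAc) of mice with and without maternal separation (MS). The members were all non-control spots whose gene name equals one of these 9 symbols, which gave 15 probes and 26 spots per array out of 55681 probes. The animals were adult male C3H/HeN mice, 4 control and 4 MS, with 1 array per mouse. The MS pups were separated from their dams from postnatal day 2 to 14, and the dams received chronic unpredictable stress. Controls were left without separation, and all animals were weaned on day 21 and housed by sex and condition. Per the methods of the study, every mouse had worked for sweetened milk in operant cages and was deprived of food before the NAc was punched from frozen slices. No fed group was therefore hybridised, so the values compare MS with control mice in the food-deprived state and do not measure a response to fasting. The labels give each mouse an individual number. For 3 of 4 controls it begins with 8 and for 3 of 4 MS mice with 7, the meaning of which is not given in the sources used here.

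When food is withheld, adipose tissue releases fatty acids and the liver turns part of them into ketone bodies, which the brain can burn in place of glucose. PPARα, encoded by Ppara, is the nuclear receptor that senses fatty acids and raises the genes for their oxidation in liver, heart and muscle. In the brain, oxidation of fatty acids takes place largely in astrocytes, whereas neurons also oxidise ketone bodies. In whole-tissue punches, fewer cells of a type and less RNA per cell cannot be told apart.

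None of the 15 member probes passed the threshold between MS and control mice in limma, with adjusted p between 0.271 and 0.971. The corresponding share over all 33111 probes tested was 0.00302%, or 1 probe. At an unadjusted p under 0.05, 4 member probes were lower in MS mice and none was higher, where 14.1% of all probes reached that level, 7.71% on the lower and 6.35% on the higher side. These 4 probes belong to Cpt1a, Cpt2 and Bdh1, and probes of the same gene are not independent. With each gene taken by its brightest probe, 1 of 9 members, Cpt2, had an unadjusted p under 0.05, beside 13.8% of all 22759 named genes and transcripts, 7.98% lower and 5.85% higher, and 0.00439% past the threshold. The difference was negative, that is lower in MS mice, for 12 of 15 probes and for 7 of 9 brightest probes, against 16356 of all 33111 probes and 11386 of all 22759 genes. The median difference was -0.18 log2 over the member probes and 0.00 over all probes.

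Levels are log2 processed signals minus the 75th percentile of the array, so that 0 stands for a probe as bright as that percentile. Each of the 15 probes was well above background in every mouse. Since brightness also depends on the probe, levels are compared between mice and not between probes. The share of probes above background ranged over the arrays from 57.3% to 69.7%, the highest on control 4 and at most 61.2% on the others. Mice are numbered 1 to 4 within a group in the order of their records, and the numbers pair no animals. Litters are identified in neither group, and it is not stated that the 4 mice of a group came from separate litters. The mice of a group may therefore not be independent, and the p-values rest on the spread between these mice only.

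Genes with several probes allowed the same transcript to be read at more than one place. The first 30 bases of these probes, which are 60 bases long, are shown for the 4 such genes because their probes did not all differ alike. Positions are those of the array headers, build mm9.

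Cpt1a probe 1: tcttaggactacttgctaacctctgttact
Cpt1a probe 2: acagtcccccgaagtcttttgaatcggctc

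Cpt2 probe 1: gggttggaaagctaactcagctgtatttat
Cpt2 probe 2: attgtgaatccctcagaaatccaggcacat

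Bdh1 probe 1: tgggtggccctaaacctcagggccaatatg
Bdh1 probe 2: gtttaccttttgattagctgttgaggatta
Bdh1 probe 3: tggtcacctcttctttgtattgggaacttc

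Ppara probe 1: ctttgaaaacctacaagtcaaggtgtggcc
Ppara probe 2: aaatgctcctctaggcccctcctttggcag
Ppara probe 3: cctgtaagctgatgaatgtaaagagttaat

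The Cpt1a probes lie on the plus strand of chromosome 19, probe 1 (A_51_P427674) at 3385374 to 3385433 and probe 2 (A_55_P2057405) at 3384060 to 3384119, with 1314 bases between their starts. The Cpt2 probes lie on the minus strand of chromosome 4, probe 1 (A_55_P2033650) at 107576591 to 107576650 and probe 2 (A_55_P2074174) at 107580325 to 107580384. The Bdh1 probes lie on the plus strand of chromosome 16, probe 1 (A_51_P163106) at 31457378 to 31457437, probe 2 (A_55_P2181753) at 31457249 to 31457308 and probe 3 (A_52_P468343) at 31458195 to 31458254. The Ppara probes lie on the plus strand of chromosome 15, probe 1 (A_55_P2055854) at 85632110 to 85632169, probe 2 (A_55_P2071601) at 85632534 to 85632593 and probe 3 (A_55_P2071596) at 85637193 to 85637252. Exons and untranslated regions under the probes were not analysed here. Probes are numbered from the brightest.

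**Figure D1:**
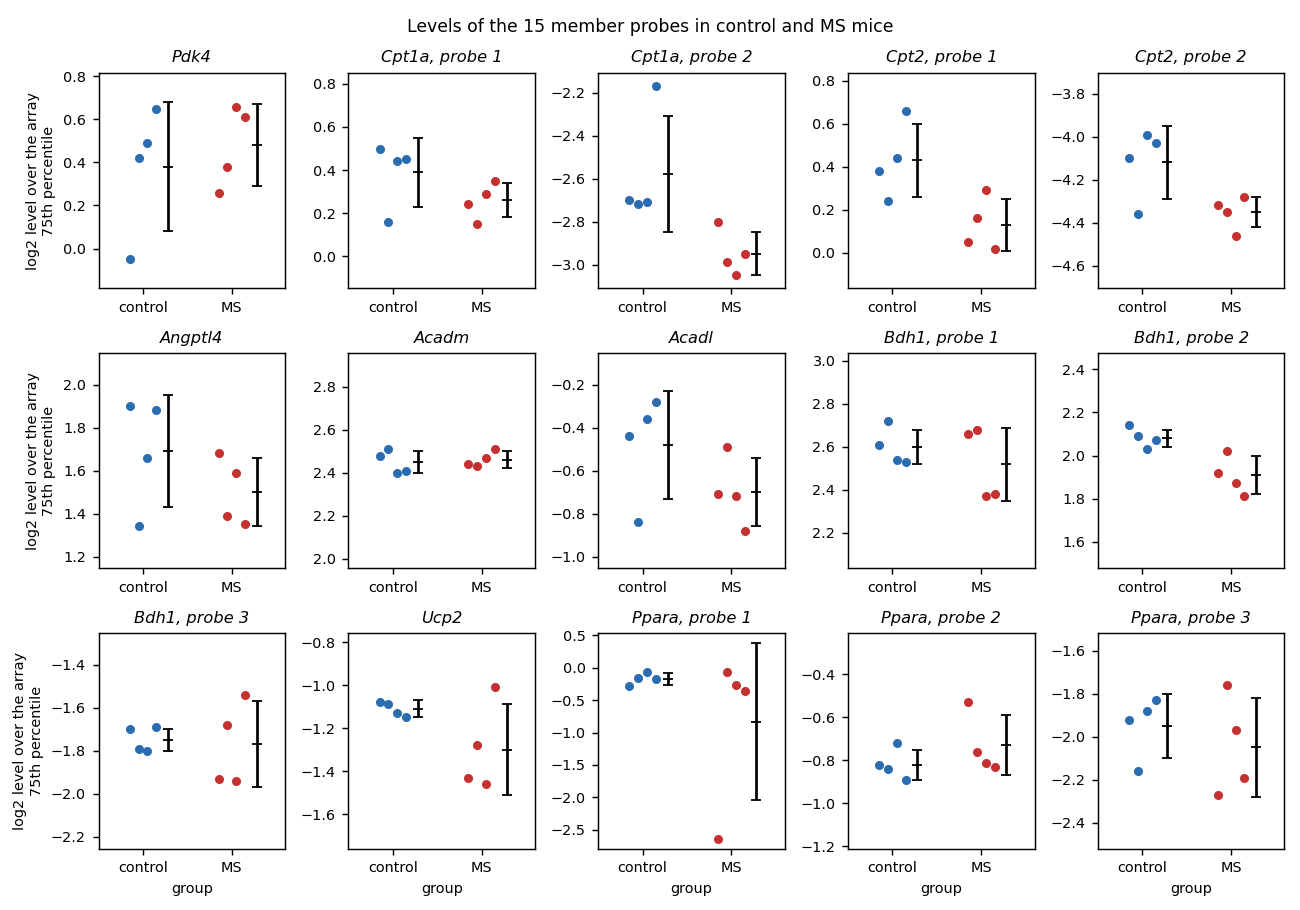
Level of each of the 15 member probes (y axis, log2 over the 75th percentile of the array, own scale in each panel) in the 4 control (blue) and 4 MS mice (red), with the mean ± SD as a bar to the right. The groups are apart only for Cpt1a probe 2 and Bdh1 probe 2, and 1 MS mouse is at -2.64 for Ppara probe 1.

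The carnitine shuttle carries long-chain fatty acids into mitochondria, and both of its palmitoyltransferases are members. Cpt1a, the liver-type enzyme of the outer membrane that controls entry into oxidation, had levels of 0.50, 0.16, 0.44 and 0.45 in control mice and of 0.24, 0.15, 0.29 and 0.35 in MS mice by probe 1. Control 2 lay among the MS mice, and the groups overlapped. The means were 0.39 ± 0.16 and 0.26 ± 0.08 (SD, n = 4 each), a difference of -0.13 (SE 0.09, 95% interval -0.34 to 0.08, limma adjusted p = 0.580). Without control 2 it was -0.21, without control 1 or without MS 2 it was -0.09, and with median scaling -0.08.

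This probe was spotted 10 times on each array, with 9 spots used since the same spot was marked as an outlier in every scan, so that the error of the array itself could be read. Within an array the spots had an SD of 0.04 to 0.09, with a median of 0.07, where the SD between mice was 0.16 in controls and 0.08 in MS mice. Each value of a mouse is a mean over these spots, and the spread between mice was not tested against that between spots. On control 2 all 9 spots lay between 0.04 and 0.25, below all 9 spots of each other control array, the lowest of which was 0.34.

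**Figure D2:**
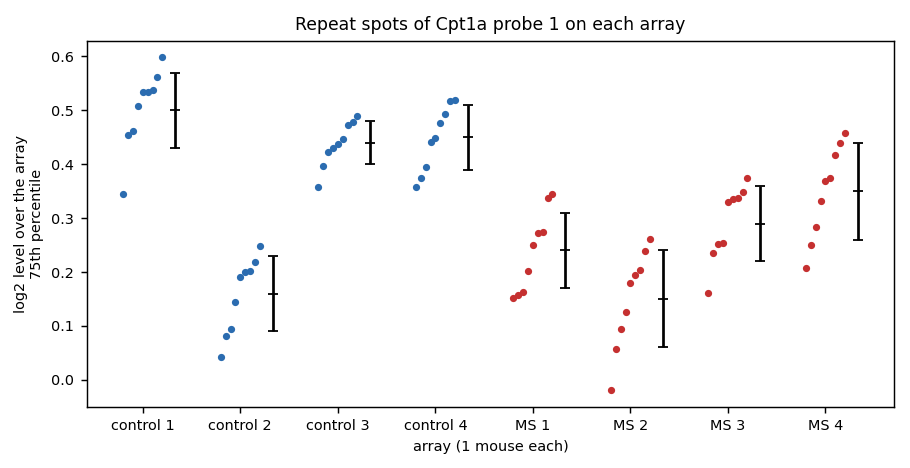
Levels of the 9 spots of Cpt1a probe 1 on each array (y axis, log2 over the 75th percentile of the array), control arrays in blue and MS arrays in red, with the mean ± SD over spots as a bar. The spots of control 2, from 0.04 to 0.25, sit below those of the other controls and among those of the MS arrays.

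Cpt1a probe 2 was at -2.70, -2.72, -2.71 and -2.17 in control mice and at -2.80, -2.99, -3.05 and -2.95 in MS mice. Every MS mouse was below every control, and control 4 stood far above the other 3. The difference was -0.37 (SE 0.13, interval -0.68 to -0.07), a fold of 0.773, with an unadjusted p of 0.0219 and an adjusted p of 0.272 in limma. The exact two-sided permutation p was 0.0286, the smallest that 4 against 4 can give. Without control 4 the difference was -0.24 (SE 0.08, limma adjusted p = 0.350), and it was -0.19 when the background was corrected by normexp, so that its size depended on both. Within the slide it was -0.18 in row 1 and -0.56 in row 2, which holds control 4. In all, 2 of 15 member probes had groups without overlap, this one and a Bdh1 probe, both lower in MS mice, compared with 8.67% of all probes, 4.91% on the lower side.

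Cpt2, the enzyme of the inner membrane that returns the fatty acid to coenzyme A, was the member with the smallest adjusted p. By probe 1 the control mice had levels of 0.38, 0.24, 0.44 and 0.66 and the MS mice 0.05, 0.16, 0.29 and 0.02. MS 3 was above control 2, and the other MS mice were below all controls. The means were 0.43 ± 0.17 and 0.13 ± 0.12 (SD, n = 4 each), a difference of -0.29 (SE 0.11, interval -0.53 to -0.06), a fold of 0.815. Its unadjusted p was 0.0215 and its adjusted p 0.271 in limma, and the exact permutation p was 0.0571. Each of the 4 slide columns holds 1 control and 1 MS mouse, and the difference between these was negative in all 4, from -0.49 to -0.09. These pairs regroup the values given above and are not a further test. For probe 2 the same differences ranged from -0.36 to 0.08. Without control 4 the difference between groups was -0.22 (limma unadjusted p = 0.0515).

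Cpt2 probe 2, a dim probe, gave -4.10, -4.36, -3.99 and -4.03 in controls and -4.32, -4.35, -4.46 and -4.28 in MS mice. Control 2 lay within the range of the MS mice and the other 3 controls above it. The difference was -0.23 (SE 0.09, interval -0.45 to -0.02), with an unadjusted p of 0.0374 and an adjusted p of 0.323 in limma. It was -0.10 with normexp, -0.12 with the deposited values and -0.13 with quantile scaling. Both Cpt2 probes were therefore on the lower side, and their levels over the 8 arrays had a correlation of 0.70, from arrays that share scaling and groups.

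**Figure D3:**
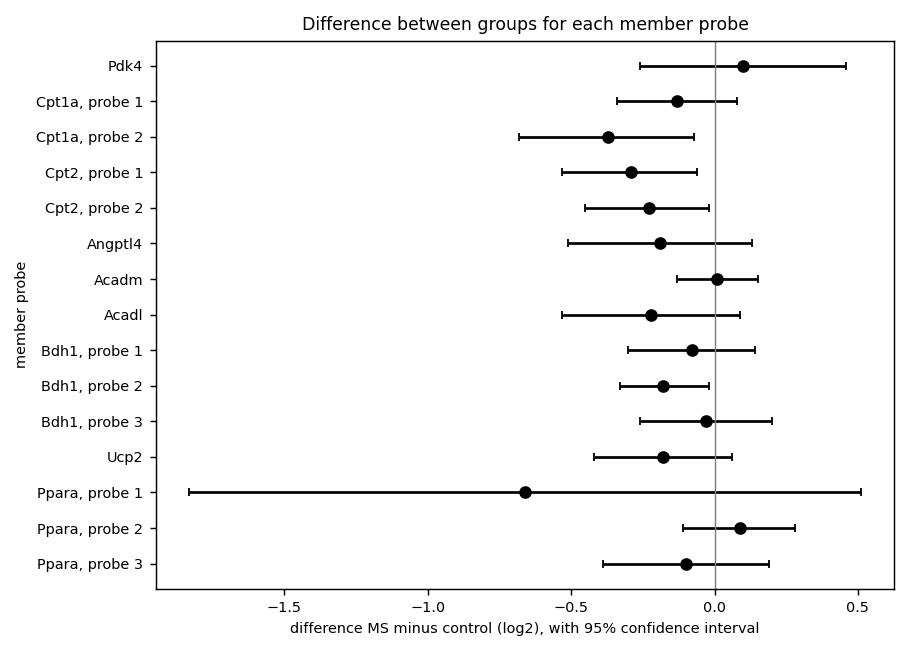
Difference MS minus control (x axis, log2) of each of the 15 member probes with its 95% confidence interval from limma. The intervals of Cpt1a probe 2, both Cpt2 probes and Bdh1 probe 2 lie below 0, none of them past the threshold after adjustment, and that of Ppara probe 1 is widest, from -1.83 to 0.51.

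Acadm and Acadl encode the medium-chain and long-chain acyl-CoA dehydrogenases, which take the first step of mitochondrial beta-oxidation. Acadm (A_51_P319879, chromosome 3, 153585670 to 153585729, minus strand) was at 2.48, 2.51, 2.40 and 2.41 in controls and at 2.44, 2.43, 2.47 and 2.51 in MS mice. It was the most even member, with mice of both groups interleaved. Its difference of 0.01 (SE 0.06) had an interval of -0.13 to 0.15, the narrowest of the members, and an adjusted p of 0.971 in limma. Acadl (A_51_P149455, chromosome 1, 66877673 to 66877732, minus strand) was at -0.44, -0.84, -0.36 and -0.28 in controls and at -0.71, -0.49, -0.72 and -0.88 in MS mice. Control 2 was near the bottom of the MS range and MS 2 among the controls. The difference of -0.22 (SE 0.14, interval -0.53 to 0.09, limma adjusted p = 0.521) was unequal over the slide, at 0.04 in row 1 and -0.48 in row 2. It was -0.34 without control 2 and -0.15 without control 4.

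Bdh1 encodes the mitochondrial dehydrogenase that interconverts the ketone bodies beta-hydroxybutyrate and acetoacetate. Its probes differed among themselves. By probe 1, controls were at 2.61, 2.72, 2.54 and 2.53 and MS mice at 2.66, 2.68, 2.37 and 2.38, with MS 1 and MS 2 among the controls and MS 3 and MS 4 below them. The difference was -0.08 (SE 0.10, interval -0.30 to 0.14, limma adjusted p = 0.782), and it ranged from -0.13 to -0.02 as each mouse was left out. By probe 2, which starts 129 bases from probe 1, controls were at 2.14, 2.09, 2.03 and 2.07 and MS mice at 1.92, 2.02, 1.87 and 1.81. All MS mice were below all controls, MS 2 by a small margin. The difference was -0.18 (SE 0.07, interval -0.33 to -0.02), with an unadjusted p of 0.0321 and an adjusted p of 0.308 in limma, and an exact permutation p of 0.0286. By probe 3, controls were at -1.70, -1.79, -1.80 and -1.69 and MS mice at -1.93, -1.68, -1.94 and -1.54, a difference of -0.03 (SE 0.10, limma adjusted p = 0.934). Here MS mice lay on both sides of the controls. Only 1 of the 3 places read in Bdh1 thus kept the groups apart, and whether the probes differ from each other was not tested.

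Pdk4 encodes the kinase that switches off pyruvate dehydrogenase in fasting and so spares glucose. Its probe (A_51_P350453, chromosome 6, 5433441 to 5433500, minus strand) was at -0.05, 0.42, 0.49 and 0.65 in controls and at 0.26, 0.38, 0.66 and 0.61 in MS mice. Control 1 was lowest of all and the others overlapped. The difference was 0.10 (SE 0.16, interval -0.26 to 0.46, limma adjusted p = 0.835), and it turned to -0.04 without control 1.

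Angptl4 encodes a secreted inhibitor of lipoprotein lipase that is induced by fasting. Its probe (A_51_P338443, chromosome 17, 33911880 to 33911939, minus strand) was at 1.90, 1.34, 1.66 and 1.88 in controls and at 1.68, 1.39, 1.59 and 1.35 in MS mice. Control 2 was again the lowest control, at the level of MS 2 and MS 4. The difference was -0.19 (SE 0.14, interval -0.51 to 0.13, limma adjusted p = 0.589). It was -0.31 without control 2 (limma unadjusted p = 0.0265, adjusted p = 0.299), the control nearest the MS mice. Without control 1 it was -0.12 (unadjusted p = 0.428) and without control 4 -0.13 (unadjusted p = 0.409), both in limma.

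Ucp2 encodes a carrier of the inner mitochondrial membrane of the uncoupling protein family, which in the brain is prominent in microglia. Its probe (A_51_P297105, chromosome 7, 107647809 to 107647868, plus strand) was at -1.08, -1.09, -1.13 and -1.15 in controls and at -1.43, -1.28, -1.46 and -1.01 in MS mice. The controls were close together, and 3 MS mice lay below and MS 4 above all of them. The SD was 0.04 in controls and 0.21 in MS mice, and the difference was -0.18 (SE 0.10, interval -0.42 to 0.06, limma adjusted p = 0.480). It was -0.28 without MS 4 and -0.11 with the deposited values.

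Ppara itself was read by 3 probes, and the one with the highest level was decided by a single spot. By probe 1, controls were at -0.28, -0.16, -0.07 and -0.17 and MS mice at -2.64, -0.06, -0.27 and -0.35. MS 1 was far below the other 7 mice, which overlapped. The processed signal of this spot was 51.31 in MS 1 and between 281.2 and 381.8 in the other mice, and the scanner software had not marked the spot as an outlier. The difference was -0.66 (SE 0.51, interval -1.83 to 0.51, limma adjusted p = 0.614), and -0.06 (SE 0.10, adjusted p = 0.839) without MS 1.

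The other Ppara probes had 2 spots per array each and gave no such value for MS 1. By probe 2, controls were at -0.82, -0.84, -0.72 and -0.89 and MS mice at -0.53, -0.76, -0.81 and -0.83, so that MS 1 was the highest mouse. The difference was 0.09 (SE 0.09, interval -0.11 to 0.28, limma adjusted p = 0.708), and 0.02 without MS 1. By probe 3, controls were at -1.92, -2.16, -1.88 and -1.83 and MS mice at -2.27, -1.76, -1.97 and -2.19, a difference of -0.10 (SE 0.13, limma adjusted p = 0.777) that ranged from -0.20 to -0.03 as each mouse was left out. Here MS 1 was the lowest mouse, next to MS 4 and control 2. The 2 spots of a probe were a median of 0.17 log2 apart for both probes, and at most 0.24 for probe 2 and 0.50 for probe 3. The level of Ppara thus showed no difference beyond the spread between mice by any probe.

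The pathways around the members were read from 12 lists of 120 genes, of which 114 were tested, each by its brightest probe. No gene of any list passed the threshold in limma. Of the 105 tested genes that are not members, 14 had an unadjusted p under 0.05, 9 lower and 5 higher in MS mice. This is 13.3%, beside 13.8% of all genes. Of the same 105 genes, 11 had groups without overlap, 8 on the lower side, where 8.89% of all genes did, 5.24% on the lower side. Their median difference was -0.06, and the smallest adjusted p was 0.166.

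In the carnitine shuttle, 5 of 7 genes had negative differences, with a median of -0.13. Slc25a20, the carnitine-acylcarnitine carrier between both palmitoyltransferases, differed by -0.16 (SE 0.09, limma adjusted p = 0.467) and Crat, carnitine acetyltransferase, by -0.26 (SE 0.16, adjusted p = 0.501). Without MS 3 these were -0.10 and -0.11, and Slc25a20 was at -0.07 with the deposited values. Of the acyl-CoA dehydrogenases and their electron carriers, 9 of 12 were negative, with a median of -0.07. Etfa, a subunit of the flavoprotein that takes up their electrons, differed by -0.19 (SE 0.07, adjusted p = 0.288) without overlap between groups, and Acadvl, the very-long-chain enzyme, by -0.11 (SE 0.07, adjusted p = 0.498).

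All 8 genes of the later steps of mitochondrial beta-oxidation had negative differences, with a median of -0.13, where 11386 of all 22759 genes did. Eci1, an isomerase for unsaturated fatty acids, was at 1.68 ± 0.07 in control and 1.43 ± 0.05 in MS mice (SD, n = 4 each). Its difference of -0.25 (SE 0.07, limma adjusted p = 0.166) had no overlap between groups. Hadhb, a subunit of the trifunctional protein, was at 2.98 ± 0.10 and 2.75 ± 0.07, a difference of -0.23 (SE 0.08, adjusted p = 0.236), also without overlap. None of these 8 passed the threshold, and 3 had an unadjusted p under 0.05.

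Peroxisomal beta-oxidation was divided, with 6 of 10 genes negative and a median of -0.04. Ehhadh, its bifunctional enzyme, differed by 0.16 (SE 0.08, limma adjusted p = 0.412) and Acox3, an acyl-CoA oxidase, by -0.14 (SE 0.07, adjusted p = 0.438). Ehhadh was at 0.09 with normexp and Acox3 at -0.03 as the mean over its probes. For fatty acid uptake and activation, 7 of 11 tested genes were negative, with a median of -0.05, and Cd36 was too dim to be tested. Acsl1, an acyl-CoA synthetase, differed by 0.12 (SE 0.07, adjusted p = 0.489) and Lpl, the lipoprotein lipase that Angptl4 inhibits, by 0.31 (SE 0.19, adjusted p = 0.522), or by 0.14 without control 4. As the mean over its probes Acsl1 was at 0.04.

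Among 8 genes of ketone body metabolism and transport, 4 were negative and 4 positive, with a median of 0.02. Bdh2 differed by -0.58 (SE 0.21, limma adjusted p = 0.284), and by -0.38 without control 4. Of the pyruvate dehydrogenase complex with its kinases and phosphatases, 7 of 11 were negative, with a median of -0.04. Pdk2, another kinase of the complex, differed by -0.24 (SE 0.08, adjusted p = 0.231) without overlap between groups, and Dlat, a core subunit, by -0.15 (SE 0.07, adjusted p = 0.420), or -0.09 without MS 1. The 4 uncoupling proteins tested had a median of -0.06, with Slc25a14 at 0.15 (SE 0.08, adjusted p = 0.454) and Ucp3 at -0.14 (SE 0.11, adjusted p = 0.625), and Ucp1, the thermogenic protein of brown fat, was too dim to be tested. As the mean over its probes Ucp3 differed by -0.48 (limma unadjusted p = 0.0114, adjusted p = 0.207), and by its brightest probe it ranged from -0.25 to -0.08 as each mouse was left out.

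The receptors, partners and coactivators of PPARα were divided as well, with 5 of 11 negative and a median of 0.02. Rxrg, a retinoid X receptor of striatal neurons, differed by 0.43 (SE 0.17, limma adjusted p = 0.303), or by 0.31 without control 4. Pparg differed by -0.23 (SE 0.11, adjusted p = 0.385), or by -0.13 with normexp and -0.15 without MS 2. Of 14 PPAR-responsive genes, 11 were tested, 6 with negative differences, and the median was -0.10. Fgf21, the liver hormone of fasting, Cyp4a14 and Vnn1 were too dim to be tested, and Creb3l3 differed by -0.57 (SE 0.25, adjusted p = 0.356), but by -0.34 without control 4, by -0.21 with normexp and by -0.15 with the deposited values. Of the FOXO and glucocorticoid fasting response, 12 of 14 tested genes were positive, with a median of 0.09, and Pck1, an enzyme of glucose synthesis, was too dim to be tested. Foxo1, a transcription factor held back by insulin, differed by 0.35 (SE 0.11, adjusted p = 0.229) and Ddit4, a stress-induced inhibitor of mTORC1, by 0.29 (SE 0.10, adjusted p = 0.266). Without control 4 these were 0.26 and 0.23. In fatty acid synthesis, the pathway opposite to oxidation, 10 of 12 genes were negative, with a median of -0.15. Scd2, the desaturase of the brain, differed by -0.20 (SE 0.07, adjusted p = 0.230) and Srebf1, the transcription factor of lipid synthesis, by -0.25 (SE 0.08, adjusted p = 0.236), both without overlap. Most differences were therefore negative in fatty acid synthesis as well as in mitochondrial beta-oxidation, with no gene past the threshold. The list counts and medians were read under the main scaling only. With median scaling the median difference over all probes was 0.05 in place of 0.00, so signs of genes near 0 depend on the scaling. Peroxisomal beta-oxidation was divided.

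**Figure D4:**
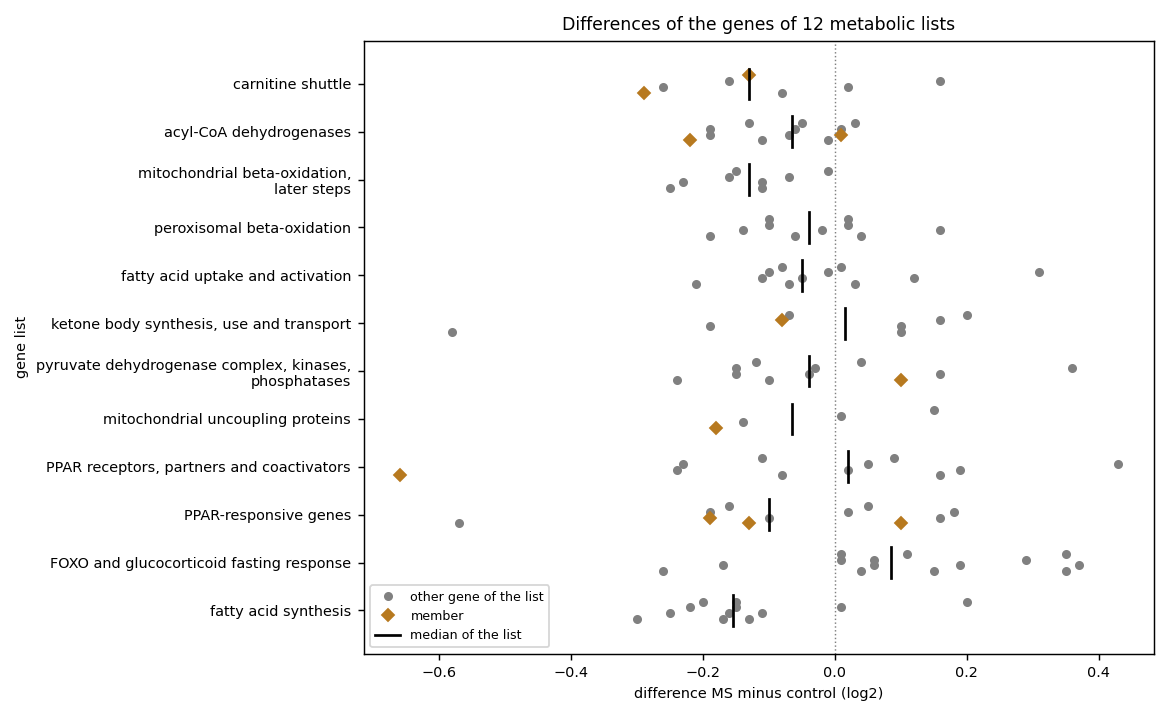
Difference MS minus control (x axis, log2) of each tested gene of the 12 metabolic lists (y axis), by its brightest probe, with members as brown diamonds, other genes as grey points and the list median as a black line. All 8 genes of the later steps of beta-oxidation are below 0, 12 of 14 genes of the FOXO and glucocorticoid list are above 0, and no gene passed the threshold.

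Markers of other cell types were read beside these genes. The summed level of 10 astrocyte markers was 8.13 to 8.33 log2 in control and 7.99 to 8.10 in MS mice, without overlap, with 7 of 10 markers negative and a median difference of -0.16. Of 8 microglial markers all were negative, with a median of -0.16 and summed levels of 6.02 to 6.35 against 5.95 to 6.14. Pallidal neuron markers were also all negative, with a median of -1.21 over 8 and summed levels of 3.37 to 4.14 against 2.06 to 3.08. All 10 markers of medium spiny neurons, the main neurons of the NAc, were positive, with a median of 0.31. Control 4 stood out when each marker was centred on its mean over the arrays and the markers of a type were averaged. It was at -0.55 for medium spiny neurons, where the other controls were at -0.16 to 0.09. It was also the highest array for pallidal neurons (1.09) and astrocytes (0.31). Smaller medians were found for oligodendrocytes, at -0.13 with 7 of 8 negative, for endothelium, at 0.04 with 4 of 10 negative, and for red blood cells, at -0.06 with all 3 tested negative. Pericyte markers had a median of 0.18 with 7 of 8 positive and those of choroid plexus and ependyma of 0.12 with 5 of 6 positive, while Ttr, Aqp1 and Hbb-b1 were not tested. None of the markers passed the threshold, some of them (Agt, Npas1 and Pvalb) were named by the study as changed in these mice, and their part in the values of the members was not tested.

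Levels of the members were also set against each other from mouse to mouse. Over the 36 pairs of members, each by its brightest probe, the correlation of levels over the 8 arrays ranged from -0.81 (Acadm with Acadl) to 0.80 (Cpt2 with Acadl), with a median of 0.03 and 19 pairs above 0. The genes most like a member over the 8 arrays were Fam111a, Itpr2 and H1f1 for Cpt2 (r = 0.975, 0.974 and 0.972), Mblac1, Mmd2 and Gpr84 for Cpt1a (r = 0.959, 0.954 and 0.952) and Rflna, Sox2 and Ankrd44 for Angptl4 (r = 0.956, 0.950 and 0.949). For Pdk4 they were Ift80, Bnipl and Itgb3bp (r = 0.961, 0.951 and 0.949), for Acadm Brsk2, Fap and Stx1a (r = 0.980, 0.945 and 0.937) and for Acadl Rras2, 2210417A02Rik and Fam169a (r = 0.960, 0.949 and 0.948). For Bdh1 they were Pkd1, Ccdc142 and Ip6k2 (r = 0.936, 0.931 and 0.929) and for Ucp2 Rcbtb2, Lag3 and Rpap2 (r = 0.960, 0.952 and 0.951). For Ppara, whose pattern over the arrays is that of the low spot in MS 1, they were Osgepl1, Dhdds and Tpd52 (r = 0.962, 0.960 and 0.958). With 22759 genes and 8 arrays that share scaling and groups, such values describe the likeness only. No other member was among these genes.

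The promoters were searched for an exact form of the sequence that PPARα binds with its partner. This form is a direct repeat of the nuclear receptor half-site AGGTCA in which any 1 base stands between the copies. RefSeq promoters of 300 bases (build GRCm38) were given for 8 members, all but Angptl4. The repeat was found on either strand in 0 of these 8 and in 0.0396% of all 32851 promoters. A sequence this rare is unlikely in any 8 promoters, and bases outside them were not searched. Its absence therefore does not show whether PPARα binds these genes. The half-site alone was found in Acadm and Cpt1a and in 16.3% of all promoters.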

How the data were processed

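Total RNA of 8 NAc samples was labelled with Cy3 (40 ng per mouse) and hybridised by the authors on Agilent arrays, all on 1 slide with 2 rows and 4 columns. The deposited scanner files hold intensity values per spot, with local background subtracted by Agilent Feature Extraction 10.10.1.1. The deposited log2 table of 31261 probes, used as an alternative, followed the log2 mean signal of each array (r at least 0.9997), its columns had a median of 8.01, and its normalization is not given in the sources used here. The array design in the headers differs from that in the methods of the study, and members were found by the gene names of the headers. For other genes, names of 27235 probes were taken by accession from RefSeq (assembly GRCm38.p6) and 565 older symbols were updated.

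Control spots and spots marked as outliers were left out and spots of a probe averaged. Log2 processed signals minus the 75th percentile of each array were compared with limma 3.58.1 in R 4.3.3 (lmFit, eBayes), two-sided, for 33111 probes well above background on at least 4 arrays. P-values were adjusted by Benjamini-Hochberg over all of them, with a threshold of 0.05. Permutation tests were exact over 70 arrangements. Genes of lists were represented by their brightest tested probe. The number of arrays limits the precision.

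The members, pathway lists and marker lists were chosen with earlier results of these data known. All members were named, and of each list the 2 other genes with the smallest unadjusted p, since none passed the threshold (1 of these genes is not reported here), and for each member the 3 genes most correlated with it. The fit was tested on simulated data with independent probes and added differences larger than that of any member. How well it detects differences of the size seen in the members was not tested. Alternatives were normexp background correction with an offset of 50, median and quantile scaling, other filters on dim probes, the deposited table, slide row or column as a block, moderation with a variance trend, the mean over probes of a gene, and leaving out each mouse.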

Additional observations from a re-analysis of the deposited data

Results flagged for a closer look

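In 2 of the 30 groups of 4 mice examined for the member probes, 1 mouse lay far from the other 3 by Dixon's criterion, which chance meets in about 1 of 20 groups. For Cpt1a probe 2 (A_55_P2057405), control 4 was at -2.17 log2, whereas the other controls were between -2.72 and -2.70. For Ppara probe 1 (A_55_P2055854), MS 1 was at -2.64 log2, whereas the other MS mice were between -0.35 and -0.06. The cause was tested for neither.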

How the results depend on the processing

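Under each of 18 alternative settings, 0 genes of the 12 lists passed the threshold in limma. Of these settings 17 fit single probes, and 0 of the 15 member probes passed under any of them. With the settings of the report, 4 member probes had an unadjusted p under 0.05, and this count depended on the settings. In limma, the unadjusted p of Cpt2 probe 2 was 0.121 with the deposited values, 0.207 with normexp and 0.0946 with median scaling. That of Bdh1 probe 2 was 0.0584, 0.0687 and 0.273. Cpt1a probe 2 and Cpt2 probe 1 stayed under 0.05 with these settings. The smallest adjusted p of a member probe under any alternative was 0.161, for Cpt2 probe 1 with a variance trend and robust moderation, where the settings of the report gave 0.271. The number of all probes past the threshold was 1 and depended on the settings. It was 375 with the deposited log2 values, 509 with normexp, 504 with a variance trend and robust moderation, 113 for probes well above background on all arrays, 96 with median scaling, 0 with no filter or with the slide column as a block, 1 with quantile scaling or the slide row as a block, and 0 to 37 when a mouse was left out. The cause was not tested. Of 677 differences of single genes or probes under these alternatives, 669 kept their sign and 8 turned. The other filters, the slide blocks and the variance trend left each difference itself unchanged. No sign could turn under them, so this count overstates how stable the signs were. Acadm turned to -0.03 with the deposited values and ranged from -0.01 to 0.03 as each mouse was left out, turning without MS 4, control 3 or control 4. Bdh1 probe 3 turned to 0.02 with median scaling and ranged from -0.11 to 0.03, turning without MS 1 or MS 3. Pdk4 ranged from -0.04 to 0.19, turning without control 1. No paired analysis was possible because the numbers of the mice were given in the order of their records and pair no animals. With normexp, Cpt1a probe 2 moved from -0.37 to -0.19 and Cpt2 probe 2 from -0.23 to -0.10.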
